A study of Mus musculus with 8 samples.

Results

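The genes described here are 10 transcription factor genes of blood stem and progenitor cells, Gata1, Gata2, Gata3, Tal1, Lyl1, Lmo2, Runx1, Fli1, Erg and Gfi1b, taken by gene symbol from the 23284 genes of 1 count table. They hold the haematopoietic heptad (Gata2, Tal1, Lyl1, Lmo2, Runx1, Fli1 and Erg) with Gata1, Gata3 and Gfi1b. Their RNA was measured in LSK cells, mouse bone marrow cells negative for lineage markers and positive for Sca-1 and c-Kit at their surface. All mice were C57BL/6 and carried a green fluorescent protein reporter of Hdc, the gene of the histamine-forming enzyme histidine decarboxylase, in both groups. Cells were sorted into Hdc-GFPhi (n = 4 libraries) and Hdc-GFPlo (n = 4 libraries), with RNA of 2000 cells per library, and no treatment, age or time is given in the labels. The RNA of Hdc itself was at a similar level in both, so it does not bear out the labels of a high and a low fraction. It averaged 12.05 ± 2.12 CPM in the libraries labelled Hdc-GFPhi, where the libraries labelled Hdc-GFPlo averaged 12.11 ± 1.21 CPM (SD, n = 4 each). The Hdc log2 fold change was -0.0075 ± 0.18 (95% interval -0.39 to 0.37, edgeR adjusted p = 0.995). The names Hdc-GFPhi and Hdc-GFPlo stand below for the libraries so labelled, and every direction rests on those labels. No label says that libraries of a fraction came from separate mice, and every p-value below is therefore set against a spread between libraries that may be partly technical.

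In the stem cell compartment these factors work as an interlocked set. Tal1 and Lyl1 are basic helix-loop-helix proteins that bind DNA beside an E protein. Lmo2, together with Ldb1, is the bridge that links them to a Gata protein. Runx1, with its partner Cbfb, and the Ets proteins Fli1 and Erg bind many of the same regulatory elements. Gata2 is the Gata protein of stem cells and early progenitors and also of mast cells and basophils. Gata1 takes over from it in erythroid and megakaryocytic cells, where Gfi1b is a repressor. Gata3 is best known from T cells and innate lymphoid cells.

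None of the 10 genes was called different between the fractions. Gata2 came nearest, with a level of 185 ± 25.3 CPM (SD, n = 4; CPM are counts scaled to the library total) in the Hdc-GFPhi libraries. In the Hdc-GFPlo libraries it averaged 126 ± 16.0 CPM (SD, n = 4), so that the Hdc-GFPhi level was 1.47-fold higher (edgeR adjusted p = 0.0593). Tal1 was 1.22-fold higher with no overlap between the fractions (adjusted p = 0.377). The estimates of the other 8 genes lay between 1.18-fold lower (Lyl1) and 1.21-fold higher (Gfi1b) in Hdc-GFPhi, with adjusted p values of 0.59 to 0.951. A gene is said here to be called when its Benjamini-Hochberg adjusted p from edgeR's quasi-likelihood test over 13300 genes was under 0.05. That rule called 0.947% of all tested genes, 0.241% as higher and 0.707% as lower in Hdc-GFPhi. Of the 10 factors, 2 (Gata2 and Tal1) had an unadjusted p under 0.05, against 10.9% of all tested genes. The same 2 were higher in every Hdc-GFPhi library than in any Hdc-GFPlo library, against 3.38% of all tested genes, and 0 factors were lower without overlap, against 3.54% of all tested genes. DESeq2 called 1 factor and limma voom 1 factor, in both cases Gata2. These tools called 3.04% and 2.09% of all tested genes. The median log2 fold change of the 10 factors was 0.09, and that of all tested genes was -4.5e-04. All 10 passed the filter on low counts, with 2726 (Gata1) to 162474 (Lmo2) counts over the 8 libraries.

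The libraries had 16726179 to 23051277 counts and 14856 to 15446 detected genes. The genes of the gate were present in each library, with Kit at 748 to 1537 CPM and Ly6a, the gene of Sca-1, at means of 125 and 119 CPM in Hdc-GFPhi and Hdc-GFPlo. Of the lineage genes, Cd8a had 0 counts, Cd3e had 7 counts in all libraries together, and Itgam, at means of 86.5 and 114 CPM, was the highest. Hdc-GFPlo replicate 3 stood apart in several of the values below. It had the lowest Kit (748 CPM, against 1223 to 1537 CPM in the others), the lowest Gata2 and the highest Lyl1, and the estimates of Gata2, Lyl1, Gfi1b and Ets1 and the mast cell and basophil sum are also given without it.

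The start regions of 3 genes are shown because they are the factors with the largest estimates on the higher side. Each is the 250 bases before a transcription start of the gene in RefSeq (build GRCm38.p6), written 5′ to 3′ on the gene's strand. The counts were made on build mm9, and these coordinates belong to GRCm38.p6 alone. Capitals mark any of 4 kinds of word, each searched on both strands. The GATA words were AGATAA, with AGATAG, then TGATAA, with TGATAG. The E-box words were CAGATG, with CAGCTG. The Ets words were AGGAAG, with CGGAAG, and the Runx word was TGTGGT. No words overlapped in these windows.
Gata2, upstream start, chr6:88193641-88193890, plus strand: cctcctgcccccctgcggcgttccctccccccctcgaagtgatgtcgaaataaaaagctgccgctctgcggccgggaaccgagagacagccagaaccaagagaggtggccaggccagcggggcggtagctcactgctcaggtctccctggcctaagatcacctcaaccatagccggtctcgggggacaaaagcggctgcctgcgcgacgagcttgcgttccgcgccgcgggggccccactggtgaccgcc
Tal1, upstream start, chr4:115056176-115056425, plus strand: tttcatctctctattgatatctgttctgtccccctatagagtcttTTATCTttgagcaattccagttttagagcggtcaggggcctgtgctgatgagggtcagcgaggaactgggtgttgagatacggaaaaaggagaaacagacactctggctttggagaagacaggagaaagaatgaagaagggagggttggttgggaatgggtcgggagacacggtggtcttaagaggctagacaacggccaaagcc
Gfi1b, chr2:28621983-28622232, minus strand: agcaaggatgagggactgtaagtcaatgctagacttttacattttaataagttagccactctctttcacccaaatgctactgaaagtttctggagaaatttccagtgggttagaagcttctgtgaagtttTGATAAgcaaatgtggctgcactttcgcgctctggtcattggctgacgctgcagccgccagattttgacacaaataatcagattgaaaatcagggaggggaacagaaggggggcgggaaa
The Gata2 window held none of the words, and the Tal1 and Gfi1b windows held 1 GATA word each. RefSeq promoters were matched for 8 of the 10 genes (13 starts, with Fli1 and Lmo2 not among them). A GATA word was found in 3 of these 13 windows (23.1%), against 26.5% of 32851 windows of all genes. An Ets word was found in 4 (30.8%, against 39.2%). E-box and Runx words were in 0 of 13, against 25.5% and 14% of all windows. Gata2, Tal1, Runx1 and Erg have more than 1 start in RefSeq. The table gives 1 count per gene, so transcripts from different starts were not separated. A word in these letters is not a binding site, and its absence covers this window alone.

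**Figure D1:**
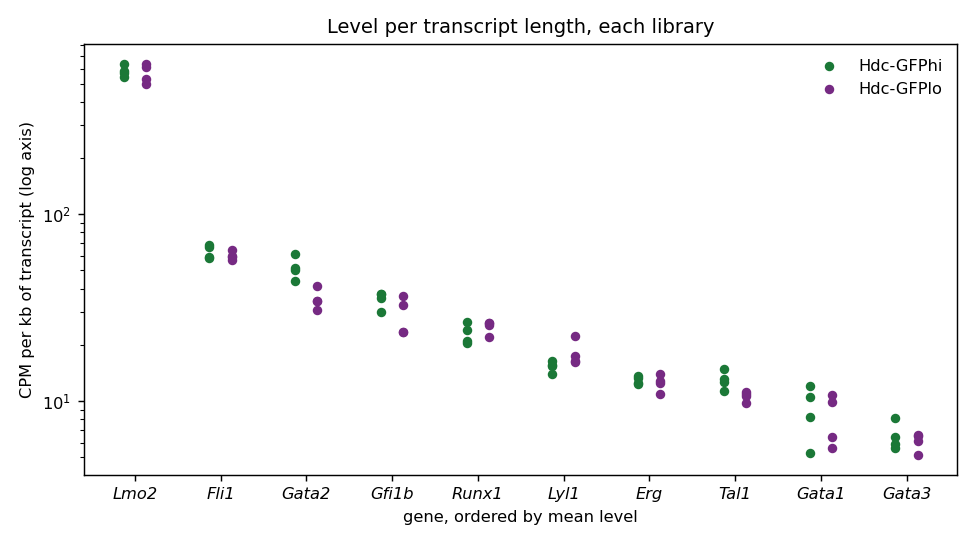
Level of each of the 10 genes in each library, as CPM per kb of transcript on a log axis, with Hdc-GFPhi in green and Hdc-GFPlo in purple. Lmo2 lies between 496 and 640 CPM per kb, and no other gene exceeds 68.3 CPM per kb.

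Per kb of transcript, Lmo2 was far above the other factors. Its level was 496 to 640 CPM per kb over the 8 libraries, and its mean made up 72.6% of the sum of the 10 means. Fli1 followed at 57.0 to 68.3 CPM per kb, then Gata2 at 30.6 to 61.2 and Gfi1b at 23.3 to 37.3. Runx1 was at 20.6 to 26.5 CPM per kb, Lyl1 at 13.9 to 22.4, Erg at 10.97 to 14.04 and Tal1 at 9.76 to 14.9. Gata1, at 5.27 to 12.002, and Gata3, at 5.13 to 8.17 CPM per kb, were the lowest. In this order the ranges of Lmo2 and Fli1 were apart, and every other pair of neighbours overlapped. Lengths are those of the longest GENCODE M21 transcript of each gene, from another build than the counts, so a gene read mainly from a shorter isoform would be placed too low.

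**Figure D2:**
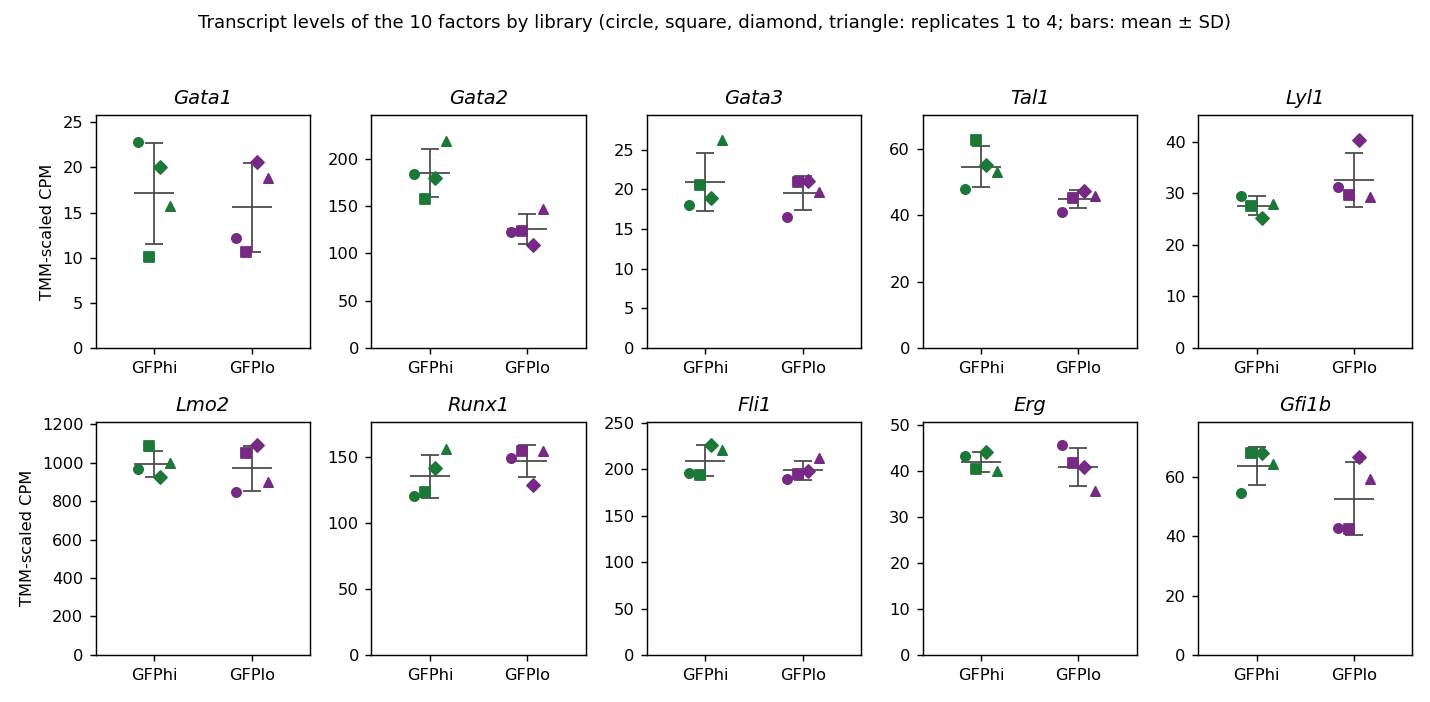
TMM-scaled CPM of the 10 genes in each library, by fraction, with the mean and SD as bars and the replicate number as the symbol. Gata2 lies at 157 to 219 CPM in Hdc-GFPhi and at 109 to 147 CPM in Hdc-GFPlo, and Tal1 also shows no overlap, while the other 8 genes overlap.

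Gata2 is the Gata protein of the heptad. In Hdc-GFPhi replicates 1 to 4 it was at 184, 157, 179.7 and 219 CPM, and in Hdc-GFPlo replicates 1 to 4 at 122, 123, 109 and 147 CPM. The lowest Hdc-GFPhi library was above the highest Hdc-GFPlo library, by a margin smaller than the spread within either fraction. The log2 fold change was 0.56 ± 0.12 (SE), with a 95% interval of 1.22-fold to 1.78-fold higher. Gata2 was thus past an unadjusted threshold and not past the adjusted one (adjusted p = 0.0593, 0.00258 to 0.214 over 21 alternatives). It was called in 8 of these. With DESeq2 the adjusted p was 0.00258 (1.23% of all genes called higher), and with limma voom it was 0.0394 (0.744%). Other scaling or no filter on low counts also moved Gata2 just under the threshold, with adjusted p of 0.0469 for upper-quartile factors (0.263%), 0.0454 for library totals alone (0.271%) and 0.0421 for no filter (0.235%). It was called with the replicate number as a block (0.0224) and with the split of replicates 1 and 2 from 3 and 4 as a covariate (0.0265), both of which called 0.632% of all genes higher. Without Hdc-GFPhi replicate 2 it was called (0.0434, with 0.134% of all genes called higher). Without Hdc-GFPlo replicate 3 its log2 fold change was 0.51 (adjusted p = 0.0671), and the highest adjusted p came without Hdc-GFPlo replicate 1 (0.214). In RNA from sorted pools, fewer cells of a kind and less RNA per cell cannot be told apart.

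Marker levels of other cells were set beside Gata2. Early lymphoid and B lineage genes were on the lower side. Of 17 such genes 10 fell in Hdc-GFPhi and 0 rose, against 0.707% of all tested genes called lower. Their median log2 fold change was -2.15. Their summed level was 299.9 to 491 CPM in the Hdc-GFPhi libraries and 1362 to 2165 CPM in the Hdc-GFPlo libraries, with no overlap, and none of the 17 was at 0. Of the 10 calls, those of Rag1 and Igll1 were kept in 1 of 8 fits with a library left out, the one that left out Hdc-GFPhi replicate 4 (adjusted p at most 0.172 and 0.151 in the others), and Igll1 was called in 9 of all 21 alternatives. Of 20 monocyte and granulocyte genes 3 fell and 0 rose, against the same 0.707% of all tested genes, with a median of -0.47. The 3 were Irf8, a factor of monocytes and dendritic cells, the surface protein gene Ly6c2 and the chemokine receptor gene Ccr2. Ccr2 was called in 2 of 8 such fits, those that left out Hdc-GFPhi replicate 2 or Hdc-GFPlo replicate 3 (at most 0.112 in the others). The summed level of the 20 genes was 2705 to 3268 CPM over the Hdc-GFPhi and 3260.0 to 3968 CPM over the Hdc-GFPlo libraries, and none of the 20 was at 0. The part of these cells in the Gata2 values was not tested. Mast cells and basophils also use Gata2. None of 8 tested genes of that list was called, of 18 listed (3 at 0 in all libraries). The 10 untested genes had 0 to 124 counts each in all libraries together, and none had more in Hdc-GFPlo. Ms4a2, Tpsb2, Cma1 and Cd200r3 had 118, 91, 84 and 81 counts in Hdc-GFPhi and 6, 0, 1 and 10 in Hdc-GFPlo. Most of those of Tpsb2 and Cma1 were from Hdc-GFPhi replicate 3. The list's summed level was 1550 to 1782 CPM in Hdc-GFPhi and 997 to 1635 CPM in Hdc-GFPlo, most of it from Kit. Without Hdc-GFPlo replicate 3 the latter was 1357 to 1635 CPM. Prss34, a basophil protease chosen here after its values were seen, was uneven within the fractions. It had 0, 777, 494 and 1069 counts in Hdc-GFPhi replicates 1 to 4 and 0, 0, 1120 and 3 in Hdc-GFPlo replicates 1 to 4. Hdc-GFPlo replicate 3 and Hdc-GFPhi replicate 4 had the most Prss34, and they had the lowest and the highest Gata2 of the 8 libraries. The libraries with 0 counts of Prss34 were Hdc-GFPhi replicate 1, at 184 CPM of Gata2, and Hdc-GFPlo replicates 1 and 2, at 122 and 123 CPM. Ms4a2 of the same list, also picked after its values were seen, went otherwise. It had 5, 6, 45 and 62 counts in Hdc-GFPhi replicates 1 to 4 and 0, 0, 5 and 1 in Hdc-GFPlo replicates 1 to 4. Its highest library was thus Hdc-GFPhi replicate 4, which also had the highest Gata2. The part of basophils in the Gata2 values was not tested.

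**Figure D3:**
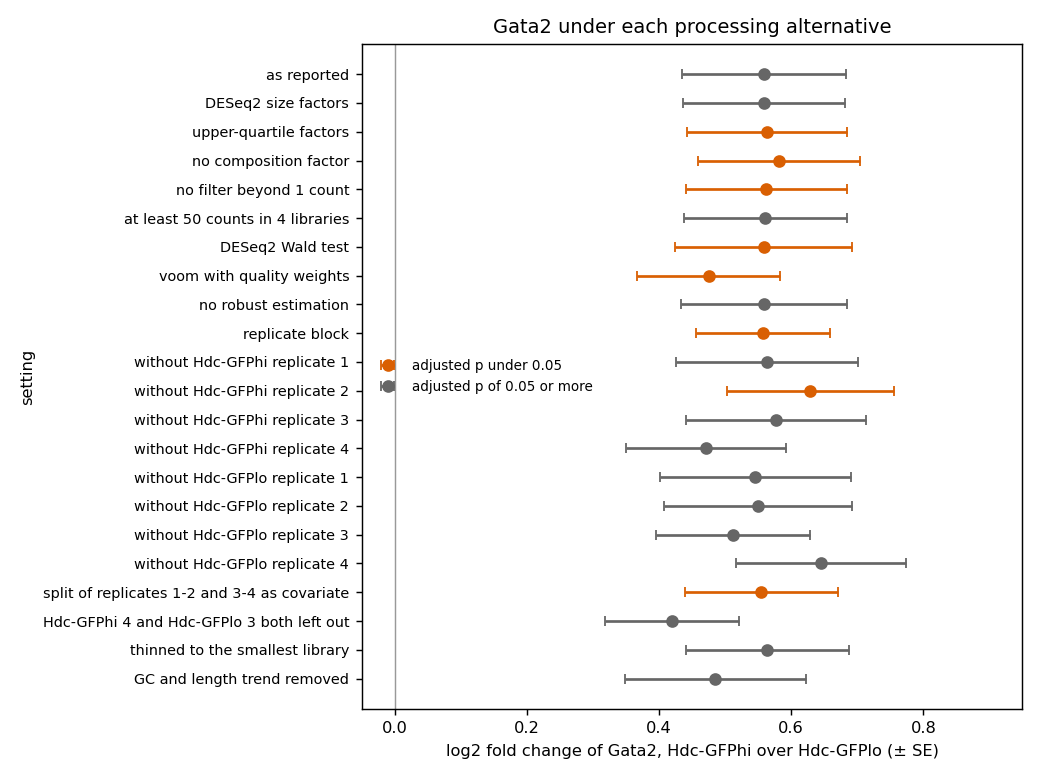
Log2 fold change of Gata2 (x axis, ± SE) as reported and under each of 21 processing alternatives (y axis), in orange where the adjusted p was under 0.05. The estimates lie between 0.42 and 0.64, all on the higher side, and 8 of the 21 alternatives are orange.

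Gata1 and Gata3 were at much lower levels and were not called. Gata1 was at 22.8, 10.03, 19.99 and 15.7 CPM in Hdc-GFPhi replicates 1 to 4 and at 12.2, 10.6, 20.5 and 18.9 CPM in Hdc-GFPlo replicates 1 to 4. Each fraction held libraries near 10 and near 20 CPM, and the fractions overlapped over almost the whole range. Its coefficient of variation, 32.5% in Hdc-GFPhi and 31.3% in Hdc-GFPlo, was the largest among the 10 genes in each fraction. The log2 fold change was 0.14 ± 0.27, with 95% bounds of 0.734 and 1.65 times the Hdc-GFPlo level (adjusted p = 0.918). Differences within those bounds are therefore not excluded. Gata1 counts were 6.37% to 12.4% of Gata2 counts in the Hdc-GFPhi libraries and 8.62% to 18.8% in the Hdc-GFPlo libraries. Gata3 was at 18.01, 20.5, 19.0 and 26.3 CPM in Hdc-GFPhi and at 16.5, 20.9, 21.1 and 19.7 CPM in Hdc-GFPlo. Replicate 4 of Hdc-GFPhi was above the other libraries, which overlapped. The log2 fold change was 0.10 ± 0.16 (adjusted p = 0.895), with bounds of 0.844 and 1.36 times the Hdc-GFPlo level.

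Of the helix-loop-helix factors, Tal1 and its relative Lyl1 had estimates on opposite sides of 0. Tal1 was at 47.9, 62.8, 55.0 and 53.0 CPM in Hdc-GFPhi and at 41.1, 45.1, 47.4 and 45.9 CPM in Hdc-GFPlo. The groups did not overlap, but the gap between 47.4 and 47.9 CPM was small. The log2 fold change was 0.28 ± 0.12 (interval 0.03 to 0.54, adjusted p = 0.377, 0.203 to 0.731 over 21 alternatives). Lyl1 was at 29.5, 27.6, 25.1 and 27.9 CPM in Hdc-GFPhi and at 31.2, 29.6, 40.3 and 29.3 CPM in Hdc-GFPlo. Its log2 fold change was -0.24 ± 0.14 (interval -0.54 to 0.05, adjusted p = 0.59). Without Hdc-GFPlo replicate 3, the high library, it was -0.11 (adjusted p = 0.806). The difference between Tal1 and Lyl1 in their response was not tested.

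Lmo2, the bridging protein, was at 969, 1087, 927 and 997 CPM in Hdc-GFPhi and at 846, 1049, 1091 and 901 CPM in Hdc-GFPlo. The fractions overlapped throughout. With a log2 fold change of 0.03 ± 0.10, its bounds were 0.878 and 1.19 times the Hdc-GFPlo level (adjusted p = 0.949), so a change as large as the Gata2 estimate lies outside its interval. The sign of so small an estimate changed when replicate 2 of Hdc-GFPhi, or replicate 1 or 4 of Hdc-GFPlo, was left out (down to -0.028).

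Runx1, which founds the stem cell lineage in the embryo and acts with Cbfb, was at 120.5, 123, 141 and 156 CPM in Hdc-GFPhi. It was at 149, 154, 129 and 154 CPM in Hdc-GFPlo. Each fraction held both lower and higher libraries. The log2 fold change was -0.12 ± 0.11, with bounds of 0.781 and 1.09 times the Hdc-GFPlo level (adjusted p = 0.802).

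Among the Ets factors, Fli1 was at 197, 194, 227 and 221 CPM in Hdc-GFPhi and at 189, 195, 199 and 213 CPM in Hdc-GFPlo. Its log2 fold change of 0.07 ± 0.09 had the smallest SE of the 10 genes, with bounds of 0.914 and 1.21 times the Hdc-GFPlo level (adjusted p = 0.857). Erg was at 43.3, 40.4, 44.2 and 40.0 CPM in Hdc-GFPhi and at 45.6, 41.6, 40.8 and 35.6 CPM in Hdc-GFPlo. The fractions overlapped for both genes. For Erg the log2 fold change was 0.04 ± 0.12, with bounds of 0.862 and 1.22 times the Hdc-GFPlo level (adjusted p = 0.951).

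Gfi1b, a zinc finger repressor of erythroid and megakaryocytic cells, was at 54.7, 68.0, 68.0 and 64.6 CPM in Hdc-GFPhi and at 42.7, 42.5, 66.8 and 59.3 CPM in Hdc-GFPlo. Replicates 1 and 2 of Hdc-GFPlo were below all other libraries, and the other libraries of the fractions overlapped. The log2 fold change was 0.27 ± 0.16 (interval -0.07 to 0.62, adjusted p = 0.601). It was 0.42 without Hdc-GFPlo replicate 3 (adjusted p = 0.23) and was not called in any of the 21 alternatives.

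**Figure D4:**
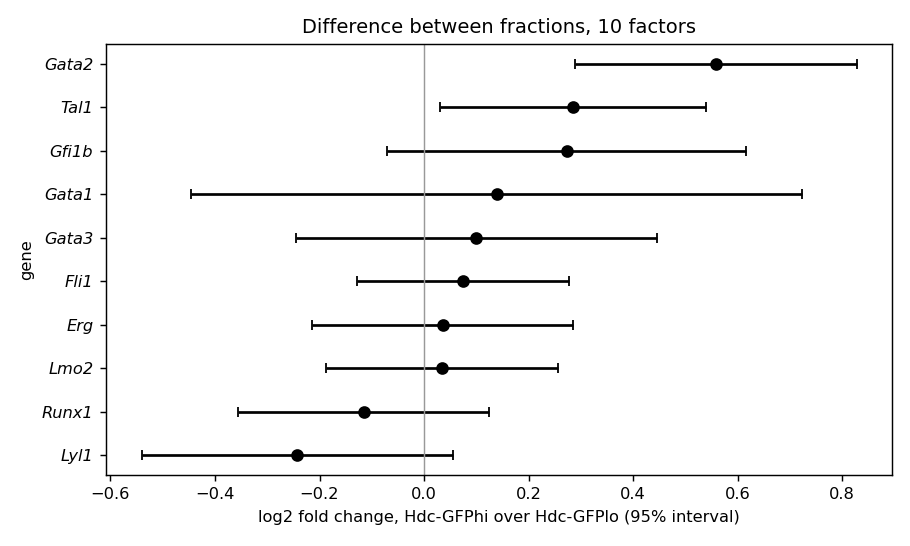
Log2 fold change of each of the 10 genes, Hdc-GFPhi over Hdc-GFPlo (x axis, points with 95% intervals). The intervals of Gata2 and Tal1 lie above 0 and those of the other 8 genes include it.

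None of the genes of partner proteins was called. The list held E proteins, Ldb1 and its Ssbp partners, Cbfb, the Gata cofactor Zfpm1 and corepressor subunits. Of its 27 genes, edgeR tested 25 and called 0, with a median log2 fold change of 0.04. An unadjusted edgeR p under 0.05 was found for 4, against 10.9% of all tested genes. DESeq2 called 2 and voom 2, against 3.04% and 2.09% of all tested genes. Tcf4, an E protein, was at 178 to 200.2 CPM over the Hdc-GFPhi libraries and 224 to 279 CPM over the Hdc-GFPlo libraries, without overlap (log2 fold change -0.39 ± 0.10, adjusted p = 0.0929). Nfe2, a leucine zipper factor of platelet formation, was at 457 to 550.0 CPM over the former and 374 to 431 CPM over the latter (0.33 ± 0.09, adjusted p = 0.162). Zfpm1, also named Fog1, was 0.51 ± 0.16 higher on that scale (adjusted p = 0.201). DESeq2 and voom each called Tcf4 as lower and Nfe2 as higher.

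Of 34 Gata, Tal, Lmo, Runx, Gfi and Ets genes outside the 10, edgeR tested 22 and called 0, with a median of -0.10. An unadjusted edgeR p under 0.05 was found for 3, against 10.9% of all tested genes. DESeq2 called 2 and voom 2, against 3.04% and 2.09% of all tested genes. The 12 untested genes, among them Gata4, Gata5, Gata6 and Tal2, had 0 to 22 counts in all libraries together. Ets1, an Ets factor of lymphocytes, was at 83.1, 94.5, 74.2 and 56.0 CPM in Hdc-GFPhi replicates 1 to 4. In Hdc-GFPlo replicates 1 to 4 it was at 162, 135, 105 and 121 CPM, above every Hdc-GFPhi library. Its log2 fold change was -0.76 ± 0.17 (adjusted p = 0.0568, 0.00189 to 0.214 over 21 alternatives, called lower in 10 of them). Ets1 was called without Hdc-GFPlo replicate 3, at -0.84 (adjusted p = 0.0273). Elf1, another Ets factor, had means of 342 ± 39.1 and 443 ± 37.4 CPM, also without overlap (log2 fold change -0.37 ± 0.10, adjusted p = 0.144). DESeq2 and voom called both as lower. The early lymphoid genes given above were on the same side, and their part in these values was not tested.

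**Figure D5:**
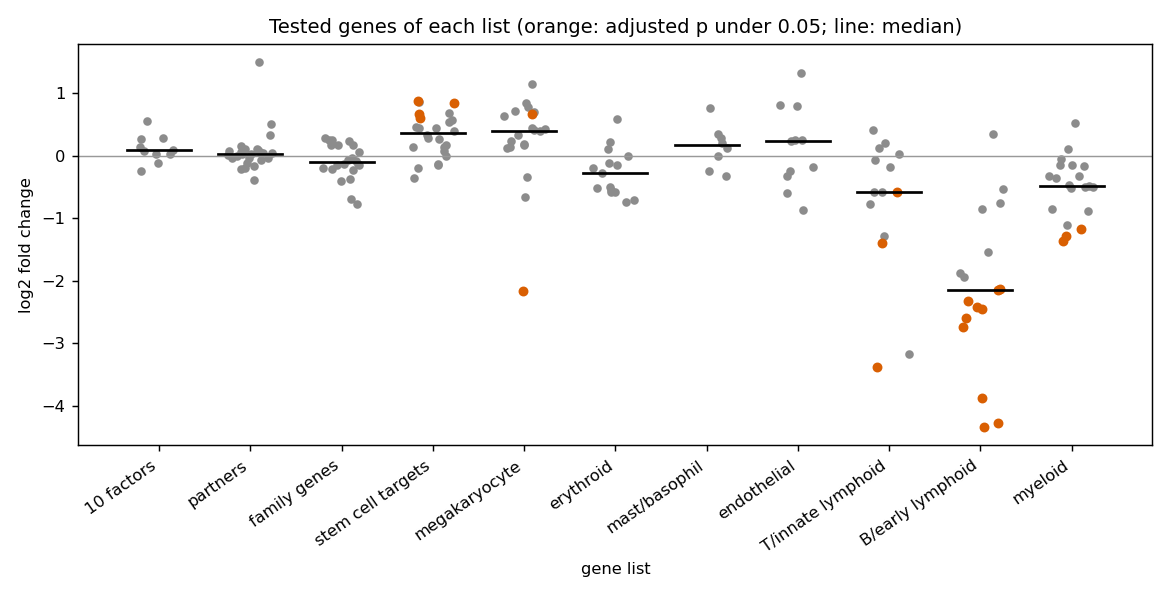
Log2 fold change, Hdc-GFPhi over Hdc-GFPlo (y axis), of each tested gene in the 10 factors and 10 further gene lists (x axis), with called genes in orange and the list median as a line. The medians are 0.09 for the factors, 0.37 for stem cell target genes and -2.15 for B and early lymphoid genes.

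A further list held stem cell genes known as targets of the heptad. Of 24 tested genes 4 rose and 0 fell, against 0.241% of all tested genes called higher, and the median log2 fold change was 0.37. Cdkn1c, a cell cycle inhibitor, rose by 0.85 ± 0.15 on the log2 scale (adjusted p = 0.0188) and Esam, an adhesion protein, by 0.88 ± 0.17 (adjusted p = 0.0253). Prdm16, a zinc finger regulator of stem cells, rose by 0.60 ± 0.12 (adjusted p = 0.0403). These 3 calls depended on single libraries. Cdkn1c was not called when replicate 1 or 4 of Hdc-GFPhi, or replicate 1, 2 or 4 of Hdc-GFPlo, was left out (adjusted p at most 0.088). Esam was not called when replicate 1, 2 or 3 of Hdc-GFPhi, or replicate 1 or 4 of Hdc-GFPlo, was left out (at most 0.0929). Prdm16 was called in 1 of the 8 such fits, the one that left out Hdc-GFPlo replicate 2 (at most 0.172 in the others). Without Hdc-GFPlo replicate 1 or 4, 1 gene of this list was called higher, against 0.0596% and 0.111% of all genes. The count was 2 without any 1 of the Hdc-GFPhi libraries, against 0.0967% to 0.201% of all genes. With DESeq2 it was 8, beside 1 called lower, against 1.23% and 1.81% of all genes. With voom it was 7, against 0.744%. These genes were put on the list with earlier results of these data known, so their direction is not independent evidence.

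Further lists held genes downstream of Gata1, Fli1 and Runx1 in single lineages. Of 20 tested megakaryocyte genes 1 rose and 1 fell (Mrvi1), against 0.241% and 0.707% of all tested genes. An unadjusted p under 0.05 was found for 9 of the 20, against 10.9% of all tested genes. The median log2 fold change was 0.40, and 17 of the 20 estimates were above 0. Mrvi1, a substrate of the cGMP-dependent kinase in platelets, fell by 2.16 ± 0.35 (adjusted p = 0.0106), from 11.8 ± 3.62 CPM in Hdc-GFPlo to 2.65 ± 1.45 CPM in Hdc-GFPhi. Mrvi1 was no longer called when replicate 3 of Hdc-GFPhi or replicate 1 of Hdc-GFPlo was left out, with an adjusted p of at most 0.051. Itga2b, the integrin chain of megakaryocytes, had means of 79.4 ± 11.7 and 48.3 ± 12.9 CPM, with overlap (0.72 ± 0.18, adjusted p = 0.0862). EdgeR called 0 of 15 tested erythroid genes (3 at an unadjusted p under 0.05), with a median of -0.27. The transferrin receptor Tfrc had means of 90.2 ± 23.7 and 128 ± 24.8 CPM (-0.50 ± 0.19, adjusted p = 0.313). EdgeR called 0 of 11 tested endothelial genes (4 at an unadjusted p under 0.05), with a median of 0.24, and Cdh5, a defining marker, had 27 counts in all libraries together. Tie1, a receptor shared by endothelium and stem cells, had means of 109 ± 14.7 and 63.2 ± 19.4 CPM without overlap (adjusted p = 0.0886).

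The list for Gata3 held genes of T cells and innate lymphoid cells, in which it acts. Of 14 tested genes 3 fell in Hdc-GFPhi and 0 rose, against 0.707% of all tested genes called lower. Their median log2 fold change was -0.58. Tcf7, a Wnt effector of early T cells, fell by 3.38 ± 0.54 (adjusted p = 0.00891). It had 23, 14, 17 and 19 counts in Hdc-GFPhi replicates 1 to 4 and 395, 34, 154 and 123 in Hdc-GFPlo replicates 1 to 4. Tcf7 was not called by voom (adjusted p = 0.101) or with Hdc-GFPhi 4 and Hdc-GFPlo 3 both left out (0.0616). For Lck, a kinase of T cell receptor signalling, the value was -0.59 ± 0.10 (adjusted p = 0.018), and for Icos, a costimulatory receptor, it was -1.40 ± 0.26 (adjusted p = 0.0255). Lck was not called when replicate 1, 3 or 4 of Hdc-GFPhi, or replicate 1 of Hdc-GFPlo, was left out (adjusted p at most 0.0867). Icos was called in 2 of the 8 such fits, those that left out replicate 3 of Hdc-GFPhi or replicate 2 of Hdc-GFPlo (at most 0.0966 in the others). Cd3e, a defining T cell gene, had 0 counts in Hdc-GFPhi and 7 in Hdc-GFPlo. Gata3 itself had adjusted p values of 0.809 to 0.984 over the 21 alternatives.

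The genes with the most similar profiles were found by the distance between log2 CPM over the 8 libraries, each gene centred on its own mean, among 11513 genes. For Gata2 these were Pkn3, a protein kinase (distance 0.19), Abcb4, a phospholipid transporter (0.29), and 8430427H17Rik (0.33), against a median distance of 1.07. Pkn3 was at 26.7, 21.7, 24.5 and 28.9 CPM in Hdc-GFPhi and at 16.9, 18.8, 15.2 and 19.2 CPM in Hdc-GFPlo, with no overlap and no call (log2 fold change 0.54, adjusted p = 0.127). The nearest to Gata3 were Pbx4, Rgp1 and Kctd13 (0.18 to 0.22, median 0.776). The nearest to Gata1 were 2610002D18Rik, Rasal2 and Ehbp1, at larger distances (0.50 to 0.56, median 1.34). With 8 libraries and many genes, such distances describe these libraries alone.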

How the data were processed

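Counts were deposited as whole numbers of reads per gene symbol, not normalized, with 1 column per library that the labels' descriptions tie to a sample. Per the labels' protocols, the SMARTer Ultra Low Input kit amplified the cDNA and Nextera XT gave the libraries. Tools named per the submitters' processing notes are HTSeq 0.6.1, TopHat2 2.04, Bowtie2 and bcl2fastq 1.8.4, with build mm9. Annotation, strand setting and handling of multiply mapped reads: not given in the sources used here. Overlapping, antisense or near-identical genes therefore cannot be told apart.

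Genes passing edgeR's filterByExpr (13300) were scaled by TMM and tested with edgeR 4.0.16 (glmQLFit, robust, glmQLFTest) in R 4.3.3, with no covariate and Benjamini-Hochberg adjustment at 0.05, in a procedure tested on simulated data. CPM are TMM-scaled. For profiles, log2 CPM had a prior count of 2. The common coefficient of variation between libraries from edgeR was 19.9%, which may be partly technical. Transcript length and GC content were matched by symbol to GENCODE M21 (98.8% of tested genes). Spi1 was matched as Sfpi1, and Ahsp and Ly6g were not matched. No pair of libraries in a fraction agreed within sampling noise (chi-square per degree of freedom at least 13.8). Groups and replicate numbers came from titles. The cell type label of Hdc-GFPhi replicate 4 has GFP+ where the others have GFPhi.

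Named genes are the 10 factors and, from each list, called genes and up to 4 with the smallest p, beside the 3 nearest profiles of Gata1, Gata2 and Gata3. Genes under that rule without a value in the text are not reported here. Factors and lists were chosen with earlier results of these data known. Listed alternatives were DESeq2 size factors (of that type, but computed by edgeR and used in its fit) and the DESeq2 1.42.0 Wald test. Others were upper-quartile and no factors, no filter beyond 1 count, at least 50 counts in 4 libraries and limma 3.58.1 voom with quality weights. No robust estimation, a replicate block and leaving out each library completed the list. Chosen after seeing the data were a covariate for replicates 1 and 2 or 3 and 4, leaving out Hdc-GFPhi replicate 4 with Hdc-GFPlo replicate 3, thinning to 16726179 counts and removing a GC and length trend.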

Additional observations from a re-analysis of the deposited data

Results flagged for a closer look

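Single libraries far from the other 3 of their fraction were seen in 4 of 120 gene and fraction groups, where chance gives about 1 in 20. Lyl1 was at 40.3 CPM in Hdc-GFPlo replicate 3 and at 29.3 to 31.2 CPM in the other Hdc-GFPlo libraries. Icos was at 7.25 CPM in Hdc-GFPlo replicate 2 and at 11.8 to 12.4 CPM in the others. Dntt, the terminal transferase of early lymphocytes, was at 323 CPM in Hdc-GFPhi replicate 1 and at 163 to 187 CPM in the others. Rag1, a recombinase gene, was at 14.3 CPM in Hdc-GFPlo replicate 1 and at 6.37 to 7.01 CPM in the others.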

How the results depend on the processing

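Over 21 alternatives, Tal1, Fli1 and Gfi1b kept estimates above 0, Lyl1 and Runx1 below 0, and none of these was called in any. No factor was called lower in any alternative, while 0.328% to 1.81% of all genes were. The number of factors called higher rose from 0 to 1, in each case Gata2, with DESeq2, voom, no filter, library totals alone, upper-quartile factors, the replicate block and the covariate for replicates 1 and 2 or 3 and 4. Adjusted p of Gata2 was 0.0569 with DESeq2 size factors, 0.0501 with at least 50 counts in 4 libraries, 0.0502 after thinning, 0.104 with the GC and length trend removed and 0.114 when Hdc-GFPhi 4 was left out together with Hdc-GFPlo 3. Of all genes, 126 were called as reported, 404 with DESeq2, 278 with voom, 275 with that covariate, 244 with the GC and length trend removed and 224 with the replicate block; the cause was not tested. Leaving out 1 library gave 52 to 146 called genes (52 without Hdc-GFPlo replicate 1, 68 without Hdc-GFPhi replicate 3) and 0 to 1 called factors (1 without Hdc-GFPhi replicate 2). Estimates near 0 changed sign in such fits, with ranges of -0.032 to 0.32 for Gata1, -0.024 to 0.17 for Gata3, -0.028 to 0.11 for Lmo2, -0.025 to 0.092 for Erg, -0.49 to 0.15 for Cpa3, -0.012 to 0.28 for Mitf and -0.026 to 0.16 for Ly6a. Cpa3 was also at 0.069 when Hdc-GFPhi 4 and Hdc-GFPlo 3 were both left out.

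Replicate numbers are shared between the fractions, but the labels give no shared origin, and deviations of same-numbered libraries correlated over genes at 0.257, 0.347, 0.0755 and 0.1001, and replicates 3 and 4 of Hdc-GFPhi correlated better with another number. With the replicate block, 224 genes were called in place of 126, and 1 factor, Gata2, was called (log2 fold change 0.56, adjusted p = 0.0224). The interval of Gata1 was wide, with bounds of 0.734 and 1.65 times the Hdc-GFPlo level. The bounds were 0.878 and 1.19 for Lmo2, 0.914 and 1.21 for Fli1, 0.862 and 1.22 for Erg and 0.781 and 1.09 for Runx1.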

Other observations

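Erythroid genes that Gata1 is known to activate were set beside it by library. Gata1 was lowest in Hdc-GFPhi replicate 2 (10.03 CPM) and Hdc-GFPlo replicate 2 (10.6 CPM). The same libraries had the highest levels of Alas2, the first enzyme of erythroid haem synthesis, at 218 and 195 CPM, against 37.9 to 107 CPM in the others. In Hdc-GFPhi replicate 1, Gata1 was highest (22.8 CPM), and Klf1, an erythroid factor, was lowest (3.17 CPM, against 7.59 to 10.7 CPM in the others). Alas2 did not share that low, at 63.8 CPM in Hdc-GFPhi replicate 1, within the range of the other libraries. Klf1 was highest in Hdc-GFPhi replicate 2 (10.7 CPM), but in Hdc-GFPlo replicate 2 it was within the range of the others (8.37 CPM). These genes were chosen after their values were seen.

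Transcripts of mast cell proteases, also chosen after their values were seen, were uneven within Hdc-GFPhi. Tpsb2, a mast cell tryptase, had 84 counts in Hdc-GFPhi replicate 3, 7 in Hdc-GFPhi replicate 2 and 0 in the other 6 libraries. Cma1, a chymase, had 70 and 14 counts in the same 2 libraries and at most 1 in the others.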
